A study of Mus musculus with 24 samples.

Results

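A set of 10 genes of the contractile RhoA pathway was followed across the ductus arteriosus (DA) and the ascending aorta of embryos with and without Prdm6. They were chosen by symbol for their roles as the small GTPases Rhoa and Rhob, the RhoA exchange factor Arhgef1, the RhoA GTPase-activating protein Arhgap42, the kinases Rock1 and Rock2 (ROCK), the myosin phosphatase subunits Ppp1r12a, Ppp1r12b and Ppp1cb, and the phosphatase inhibitor Ppp1r14a. The choice was made with earlier results of these data known. Counts of called genes among the 10, beside the share over all genes, therefore only describe the set. All 10 were among the 16463 genes that passed the filter on low counts, of 54752 genes in the table.

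In smooth muscle, contraction follows phosphorylation of the myosin regulatory light chain, which myosin light chain kinase adds and myosin phosphatase removes. GTP-bound RhoA activates the ROCK kinases, which phosphorylate the targeting subunit of myosin phosphatase and the inhibitor CPI-17 (the Ppp1r14a product), and both events slow dephosphorylation and raise the force that a given amount of calcium produces. The DA is the fetal shunt between the pulmonary artery and the aorta that must constrict soon after birth, and agonists that close it act in part through this calcium-sensitizing route.

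RNA-Seq was performed on DA and ascending aorta taken at E18.5, before the DA closes. Prdm6-deficient embryos were Wnt1Cre;PRDM6f/f, in which a Cre driven by Wnt1 regulatory sequence deletes floxed Prdm6 in the neural crest and its descendants, so that cells of other origin in the same vessel keep the gene. Control embryos were PRDM6wt/f, except that control DA replicate 3 was PRDM6wt/wt and that 1 Wnt1Cre;PRDM6wt/wt embryo gave control DA replicate 2 and control aorta replicate 3. The groups held 7 control DA, 5 Prdm6-deficient DA, 6 control aorta and 5 Prdm6-deficient aorta samples. Prdm6-deficient DA replicates 1 and 2 were pools of 2 embryos each. Both vessels came from 6 control animals and, as single samples, from 2 Prdm6-deficient animals, and the embryos pooled in Prdm6-deficient DA replicate 2 also gave Prdm6-deficient aorta replicates 1 and 2. Animal numbers in the labels fall into a lower and a higher run, called the first and second run, whose meaning the labels do not give. The labels list another Prdm6-deficient DA sample, number 4, not analysed here.

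Prdm6, the deleted gene, was at 84.9 to 128 CPM (read counts relative to each library's TMM-scaled total) in control DA, with a median of 104, and at 58.6, 70.8, 77.7, 78.1 and 78.5 CPM in Prdm6-deficient DA. It was at 95.6 to 135 CPM in control aorta, with a median of 109, and at 61.9, 68.5, 69.6, 70.1 and 81.2 CPM in Prdm6-deficient aorta. The genotypes did not overlap in either vessel, although gene-level counts do not separate the floxed exons from the rest. Total counts ranged from 15163974 to 22610547 per library. All 5 smooth muscle markers (Myh11, Acta2, Tagln, Cnn1 and Smtn) were detected, and their summed level was 12962 to 22870 CPM in control DA and 8202 to 11698 CPM over the other 3 groups. Control DA replicate 1 carried a cardiomyocyte marker sum of 799 CPM and control DA replicate 7 a Schwann cell marker sum of 166 CPM, the highest values of those sums. The red cell marker sum was 137612 CPM in Prdm6-deficient DA replicate 1 and 136480 CPM in control aorta replicate 4, against 13158 to 66566 CPM in the other libraries, and leaving out either sample changed no call among the 10 genes between genotypes or between the control vessels.

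Per length of exon, Ppp1r14a and Rhob gave the highest levels of the set and Arhgap42 the lowest. In control DA the level was 155 ± 33.1 CPM per kb (SD, n = 7) for Ppp1r14a, 118 ± 14.6 for Rhob, 64.5 ± 2.92 for Rhoa, 37.9 ± 3.35 for Ppp1cb and 28.1 ± 5.31 for Ppp1r12a. It was 17.9 ± 2.68 CPM per kb for Ppp1r12b, 12.6 ± 0.828 for Arhgef1, 9.86 ± 0.552 for Rock2, 4.81 ± 0.793 for Rock1 and 1.76 ± 0.634 for Arhgap42. In this order the ranges of Ppp1r14a and Rhob overlapped, as did those of Ppp1cb and Ppp1r12a, and all other neighbours were separate. In the other 3 groups Rhob led the order: it was at 151 ± 24.2 CPM per kb in Prdm6-deficient DA against 74.2 ± 5.81 for Ppp1r14a, at 132 ± 11.4 against 69.2 ± 11.5 in control aorta, and at 215 ± 17.5 against 64.2 ± 6.64 in Prdm6-deficient aorta. The divisor is the length of all annotated exons merged, which lowers the level of genes with long rarely used exons.

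**Figure D1:**
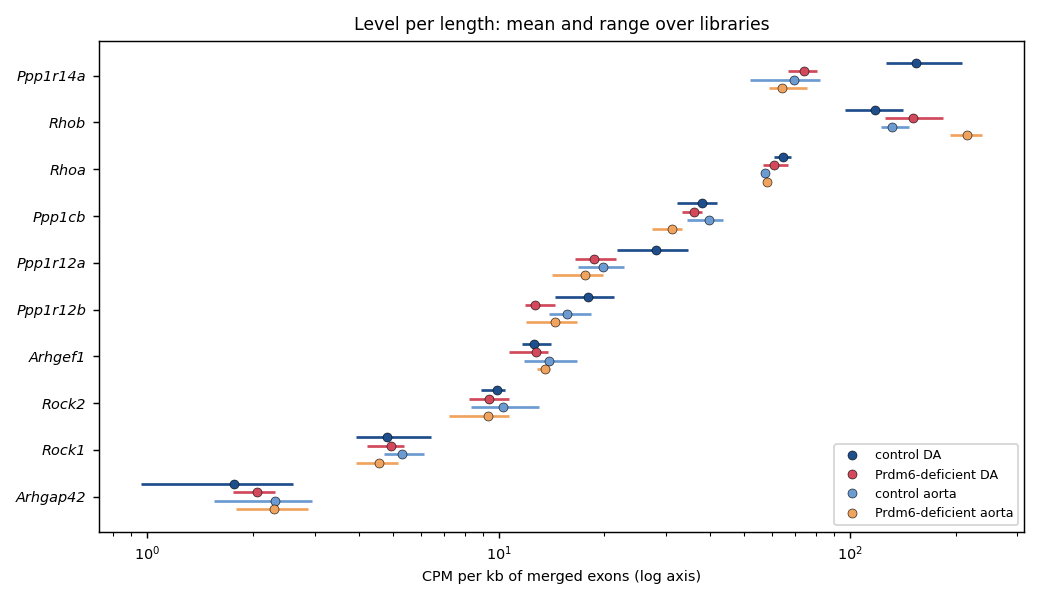
Level of each gene in CPM per kb of merged exons (log axis), with the mean as a point and the range over libraries as a line, by group. Ppp1r14a sits at a mean of 155 in control DA and between 64.2 and 74.2 in the other 3 groups, while Rhob is highest in Prdm6-deficient aorta at 215.

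The promoters of the 4 genes that passed the test between genotypes are shown for what lies in front of them. RefSeq windows on GRCm38.p6 (mm10) matched 9 of the 10 genes, with 12 windows in all, and none was matched for Rock1. Each sequence is the 250 bases before the annotated start, 5′ to 3′ on the strand of the gene, and capitals mark the GC box GGGCGG or its reverse complement. Ppp1r14a (chr7:29289070-29289319, plus strand) belongs to the gene at chr7:29289308-29293801 and ends just inside its GENCODE start. Ppp1r12a (chr10:108161848-108162097, plus strand) belongs to the gene at chr10:108162193-108284475 and ends upstream of its GENCODE start. For Ppp1r12b (chr1:134955941-134956190, minus strand) the upstream start of the gene at chr1:134754658-134955942 is shown, and a further window at chr1:134803843-134804092 lies within the gene. Rhob (chr12:8500010-8500259, minus strand) is a compact gene at chr12:8497661-8500009.
Ppp1r14a: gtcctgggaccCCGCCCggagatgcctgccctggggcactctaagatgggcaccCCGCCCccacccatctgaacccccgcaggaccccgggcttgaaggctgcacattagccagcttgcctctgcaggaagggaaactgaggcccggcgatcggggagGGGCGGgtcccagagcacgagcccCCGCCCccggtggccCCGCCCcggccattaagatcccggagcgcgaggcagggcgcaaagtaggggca
Ppp1r12a: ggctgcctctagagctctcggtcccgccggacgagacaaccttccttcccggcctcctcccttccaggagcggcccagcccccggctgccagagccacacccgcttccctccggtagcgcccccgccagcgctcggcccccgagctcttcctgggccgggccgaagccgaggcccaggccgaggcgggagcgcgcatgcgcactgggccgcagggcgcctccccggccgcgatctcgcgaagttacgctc
Ppp1r12b: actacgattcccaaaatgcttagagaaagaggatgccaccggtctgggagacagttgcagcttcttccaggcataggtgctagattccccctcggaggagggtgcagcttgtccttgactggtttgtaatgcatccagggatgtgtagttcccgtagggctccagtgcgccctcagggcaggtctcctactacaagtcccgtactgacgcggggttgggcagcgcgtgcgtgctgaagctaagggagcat
Rhob: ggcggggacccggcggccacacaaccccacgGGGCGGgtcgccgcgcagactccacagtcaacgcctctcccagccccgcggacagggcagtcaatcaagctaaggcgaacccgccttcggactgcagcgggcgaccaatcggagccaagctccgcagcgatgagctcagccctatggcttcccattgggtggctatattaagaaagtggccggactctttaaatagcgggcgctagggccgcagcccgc

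The Ppp1r14a window was 71.2% G and C and held 5 GGGCGG matches, and the Rhob window was 66.0% G and C with 1 match. The Ppp1r12a window, at 75.2% G and C, and the Ppp1r12b window, at 56.8%, held 0. GGGCGG was present in 32.7% of the 32851 windows of the table, counted on both strands and with overlapping matches. The CArG box, the binding motif of serum response factor, was found in 0 of the 12 windows and in 1.47% of all windows. The E box CANNTG was found once in the Ppp1r14a and once in the Ppp1r12b window above, and in 66.2% of all windows. These matches describe the letters in a short window and say nothing of binding, and the motifs other than the CArG box were chosen after the expression values were seen.

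The first comparison asked whether Prdm6 depletion alters this pathway in the DA. The phosphatase inhibitor Ppp1r14a and the targeting subunits Ppp1r12a and Ppp1r12b were lower. The GTPase RhoA, its exchange factor, its GTPase-activating protein, the ROCK kinases and the catalytic subunit did not pass the test. Outside the set, the targeting subunit Ppp1r12c (mean 132 CPM in control and 116 CPM in Prdm6-deficient DA) and the inhibitor Ppp1r14b (83.3 and 92.1 CPM) did not pass either. A gene was called when its adjusted p was below 0.01 (edgeR quasi-likelihood test, Benjamini-Hochberg over 16463 genes) and its log2 fold change was beyond 0.5. By this rule 3 of the 10 genes fell in Prdm6-deficient DA and 0 rose, where 5.43% of all genes tested were called, 2.61% higher and 2.82% lower. The median log2 fold change was -0.08 over the 10 genes and 0.01 over all genes.

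Ppp1r14a encodes CPI-17, which when phosphorylated blocks the catalytic subunit of myosin phosphatase. Its level was 174 to 284 CPM in control DA, with a median of 186, and 90.8, 96.4, 102, 107 and 111 CPM in Prdm6-deficient DA. Every Prdm6-deficient DA library lay below every control DA library. The log2 fold change was -1.06 (SE 0.13, adjusted p by edgeR = 9.64e-07), a level 48.0% of that in control DA. In the first and the second run of animal numbers taken alone the log2 fold change was -0.99 (edgeR adjusted p = 0.00334) and -1.11 (0.00272), and it was -1.02 (9.24e-05) without the pooled samples and -1.10 (1.51e-06) without the Cre-positive control embryo.

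The targeting subunits bring the catalytic subunit to myosin and are the parts that ROCK phosphorylates. Ppp1r12a (MYPT1) was at 174 to 277 CPM in control DA, with a median of 204, and at 133, 142, 149, 152 and 173 CPM in Prdm6-deficient DA. Ppp1r12b (MYPT2) was at 217 to 318 CPM in control DA, with a median of 291, and at 178, 181, 183, 189 and 217 CPM in Prdm6-deficient DA. In both genes the groups were separate, but the highest Prdm6-deficient and the lowest control library were nearly level, at 172.8 and 174.1 CPM for Ppp1r12a and 216.8 and 216.9 CPM for Ppp1r12b. The log2 fold change was -0.59 (SE 0.11, adjusted p by edgeR = 6.90e-04) for Ppp1r12a and -0.50 (SE 0.10, adjusted p by edgeR = 9.74e-04) for Ppp1r12b. Together with Ppp1r14a these were the 3 members without overlap between the groups, a state that 5.66% of all genes tested reached.

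Ppp1r12b lay at the fold limit. It came inside that limit, with adjusted p from 9.76e-04 to 0.00259, by limma-voom with (-0.49) and without (-0.49) animal as a block and with the run of animal numbers as a covariate (-0.48). Its log2 fold change came inside that limit, with an edgeR adjusted p of at most 0.00427, without control DA replicate 3 (-0.46), 5 (-0.48), 6 (-0.48) or 7 (-0.48), or without Prdm6-deficient DA replicate 2 (-0.48), 6 (-0.49) or 7 (-0.49). Without both pooled samples the adjusted p was 0.0148 for Ppp1r12a (log2 fold change -0.54) and 0.0173 for Ppp1r12b (-0.47), and neither was called. Within the first run of animal numbers the 2 genes gave -0.65 (adjusted p = 0.0746) and -0.46 (0.177), and within the second -0.48 (0.0566) and -0.58 (0.0122).

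The catalytic subunit Ppp1cb, which carries the phosphatase activity of the complex, did not pass the test in the DA. It was at 351 to 456 CPM in control DA, with a median of 419, and at 363, 382, 397, 403 and 415 CPM in Prdm6-deficient DA, and the groups overlapped throughout. The log2 fold change was -0.08 (95% interval -0.22 to 0.07, adjusted p by edgeR = 0.584). Ppp1cb shares 1908 exon bases with Gm43312, an overlapping transcript model on the same strand, and its expected counts were fractional in 0 of 23 libraries.

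RhoA, the switch of the pathway, and its exchange factor did not pass the test. Rhoa was at 455 to 511 CPM in control DA, with a median of 482, and at 425, 438, 450, 465 and 498 CPM in Prdm6-deficient DA, for a log2 fold change of -0.09 (95% interval -0.19 to 0.02, adjusted p by edgeR = 0.327). Arhgef1 (p115-RhoGEF), which loads RhoA with GTP downstream of heterotrimeric G proteins, was at 90.2 to 109 CPM, with a median of 96.8, and at 82.8, 98.1, 99.6, 106 and 107 CPM (log2 fold change 0.01, 95% interval -0.15 to 0.18). Both genes overlapped between genotypes, and both intervals lie inside the fold limit.

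Arhgap42 (GRAF3), a smooth muscle-selective GTPase-activating protein that turns RhoA off, was at 6.91 to 18.7 CPM in control DA, with a median of 11.2, and at 12.6, 13.8, 15.2, 15.9 and 16.6 CPM in Prdm6-deficient DA. The Prdm6-deficient libraries fell inside the wide control range. Its log2 fold change of 0.22 had a 95% interval of -0.21 to 0.64, so a change past the fold limit could not be told from none at this spread.

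The kinases Rock1 and Rock2 carry the signal from RhoA to the phosphatase. Rock1 was at 71.2 to 116 CPM in control DA, with a median of 82.4, and at 76.3, 87.4, 90.3, 95.7 and 97.6 CPM in Prdm6-deficient DA. Rock2 was at 124 to 145 CPM, with a median of 137, and at 115, 116, 132, 140 and 149 CPM. Both overlapped, with log2 fold changes of 0.04 (95% interval -0.16 to 0.25) and -0.07 (-0.29 to 0.15).

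Rhob, an endosomal relative of RhoA whose transcript is induced quickly by growth factors and stress, was at 227 to 333 CPM in control DA, with a median of 274, and at 295, 313, 344, 391 and 434 CPM in Prdm6-deficient DA. Prdm6-deficient DA replicates 1 and 6 lay within the control range and the other 3 above it. The log2 fold change of 0.36 (SE 0.09) had an edgeR adjusted p of 0.0103 and did not pass. It was 0.20 (adjusted p = 0.589) within the first run of animal numbers and 0.51 (0.0172) within the second.

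**Figure D2:**
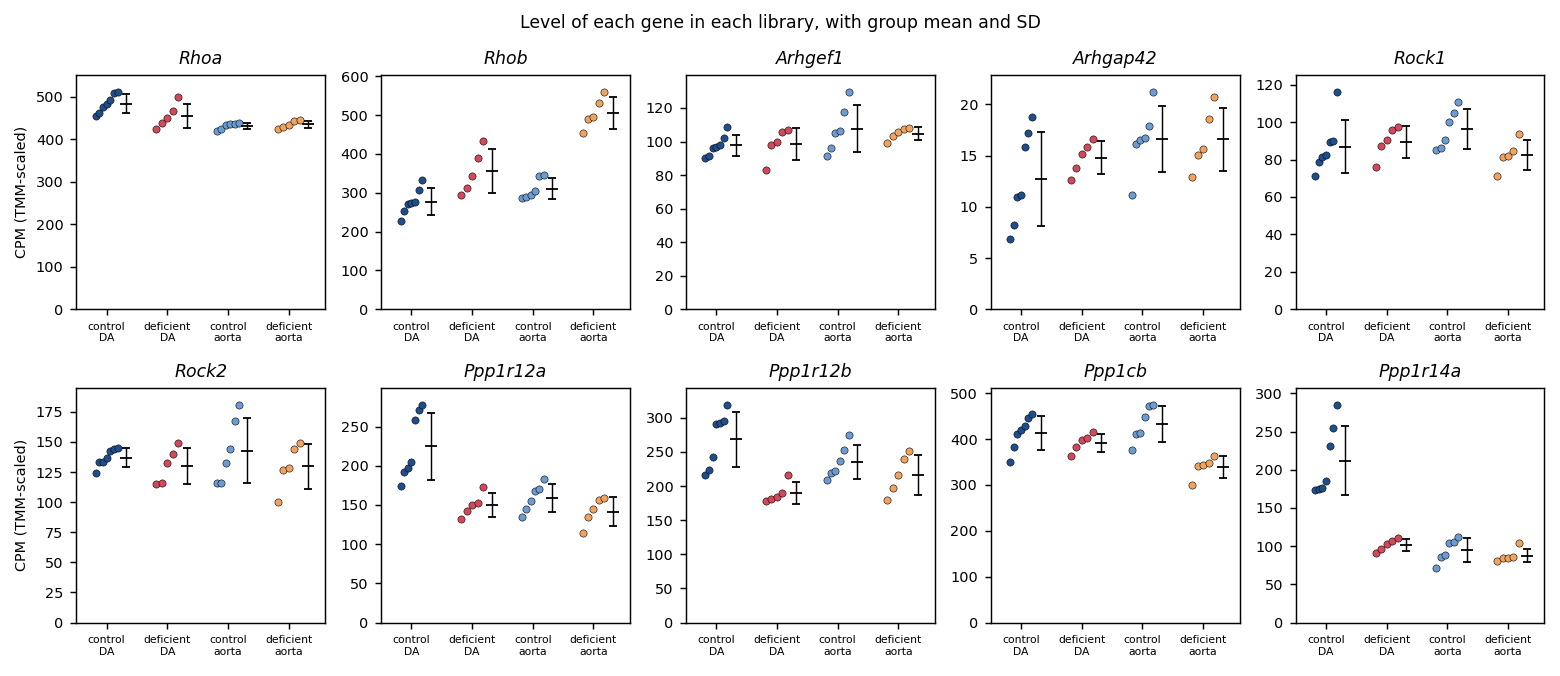
CPM of each of the 10 genes in each library (points, ordered by value within a group), with the group mean and SD at the right of each set. Ppp1r14a is the only gene in which all 7 control DA libraries, at 174 to 284 CPM, stand clear of all libraries of the other groups, and Rhob is highest in all 5 Prdm6-deficient aorta libraries.

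Smooth muscle markers moved with these results. Of the 5 markers 4 were lower in Prdm6-deficient DA (Myh11 -1.90, Cnn1 -1.65, Smtn -0.79 and Tagln -0.66) and the remaining one, Acta2, had a log2 fold change of -0.50 (edgeR adjusted p = 0.00351) just inside the fold limit. Their summed level spanned 12962 to 22870 CPM in control and 9482 to 11508 CPM in Prdm6-deficient DA libraries. Per 1000 CPM of these markers, Ppp1r14a gave 10.7 to 13.6 CPM in control DA (median 12.4), against 8.38 to 10.8 CPM in Prdm6-deficient DA (median 9.97), and the groups overlapped slightly on this scale. Ppp1r12a was at 12.1 to 14.4 (median 13.02) and 12.2 to 17.9 (median 13.6), with the groups overlapping, and Ppp1r12b at 12.9 to 17.4 (median 15.3) and 17.5 to 18.8 (median 18.7), with the order of the groups the other way round. These quotients were chosen after the values were seen and were not tested. Acta2 and Tagln weighed most in the sum, with highest counts of 162557 and 167107, against 51616 for Myh11. Myh11 and Cnn1 fell more than Ppp1r14a (-1.06), and Smtn, Tagln and Acta2 fell less, so the quotients depend on the markers used. In whole vessels, fewer smooth muscle cells and less RNA per smooth muscle cell cannot be told apart.

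Melanocyte markers moved in the same direction, with 4 of 5 lower in Prdm6-deficient DA. Their sum spanned 27.7 to 218 CPM in control DA, but 0 to 1.56 CPM in Prdm6-deficient DA, 0.353 to 13.8 CPM in control aorta and 0.0916 to 1.54 CPM in Prdm6-deficient aorta. Among fibroblast markers 1 of 5 was higher in Prdm6-deficient DA, with control sums of 756 to 2086 and Prdm6-deficient sums of 1462 to 2335 CPM, and for autonomic neurons 1 of the 3 markers tested was higher, with sums of 6.67 to 24.0 and 15.3 to 39.7 CPM. Schwann cell sums were 12.9 to 166 CPM (median 16.6) in control and 50.4 to 106 CPM (median 65.0) in Prdm6-deficient DA, with 0 of 5 markers past the test. Of the endothelial, macrophage, red cell, cardiomyocyte and epithelial markers 0 passed in this comparison. The part of these cells in the levels of the 10 genes was not tested.

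In the ascending aorta, where the same design asks whether Prdm6 acts in a second neural crest-derived vessel, Rhob was the called gene. It was higher in Prdm6-deficient aorta, and Ppp1r14a, Ppp1r12a and Ppp1r12b did not pass. By the call rule 1 of the 10 genes was higher and 0 lower, where 2.45% of all genes tested were called, 1.63% higher and 0.826% lower. The groups did not overlap for 2 of the 10 genes, Rhob and Ppp1cb, against 6.95% of all genes.

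Rhob was at 288 to 345 CPM in control aorta, with a median of 299, and at 453, 491, 494, 532 and 560 CPM in Prdm6-deficient aorta. Every Prdm6-deficient library lay well above the highest control. The log2 fold change was 0.70 (SE 0.10, adjusted p by edgeR = 1.64e-05), a level 163% of that in control aorta. It ranged from 0.67 to 0.74 when single libraries were left out, with adjusted p between 7.64e-06 and 1.13e-04, and was 0.73 (adjusted p = 4.00e-04) within the second run of animal numbers. The first run held 1 control aorta library and gave no value.

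Ppp1cb was at 375 to 474 CPM in control aorta, with a median of 430, and at 299, 341, 345, 348 and 363 CPM in Prdm6-deficient aorta. The groups were separate, and the log2 fold change of -0.35 (SE 0.07, adjusted p by edgeR = 0.00349) passed the threshold on p but not the fold limit, a level 78.4% of control. Within the second run alone it was -0.32 with an adjusted p of 0.103. Counting every gene with an adjusted p below 0.01, 2 of the 10 genes differed between genotypes in the aorta, against 2.88% of all genes.

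Ppp1r14a, which fell in the DA, was at 70.9 to 113 CPM in control aorta, with a median of 96.3, and at 80.6, 83.9, 84.5, 86.1 and 104 CPM in Prdm6-deficient aorta. The Prdm6-deficient libraries lay within the control range. Its log2 fold change was -0.11 (95% interval -0.37 to 0.15, adjusted p by edgeR = 0.864), an interval that does not reach the change seen in the DA.

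Ppp1r12a was at 135 to 183 CPM (median 161) in control aorta and at 114, 134, 145, 156 and 158 CPM in Prdm6-deficient aorta, with a log2 fold change of -0.17 (95% interval -0.41 to 0.07). Ppp1r12b was at 208 to 275 CPM (median 229) and at 180, 197, 217, 240 and 251 CPM, with -0.12 (-0.33 to 0.09). Both overlapped widely. The remaining 5 genes overlapped as well, with log2 fold changes of 0.01 for Rhoa, -0.04 for Arhgef1, -0.0025 for Arhgap42, -0.22 for Rock1 and -0.14 for Rock2, none with an edgeR adjusted p under 0.314.

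Other cell type markers differed in the aorta as well. Of the smooth muscle markers 0 of 5 passed, with sums of 8202 to 11698 CPM in control and 8989 to 10668 CPM in Prdm6-deficient aorta. Of the endothelial markers 2 of 5 were higher (Emcn and Tek), with sums of 391 to 632 and 597 to 819 CPM. The macrophage sum was 66.5 to 125 CPM in control and 37.7 to 55.5 CPM in Prdm6-deficient aorta, although 0 of 5 of its markers passed, and the autonomic neuron sum was 17.8 to 27.4 and 39.0 to 78.4 CPM, with 1 of 3 tested markers higher. Among fibroblast markers 1 was higher and 1 lower. The part of these cells in the levels of Rhob and Ppp1cb was not tested.

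**Figure D3:**
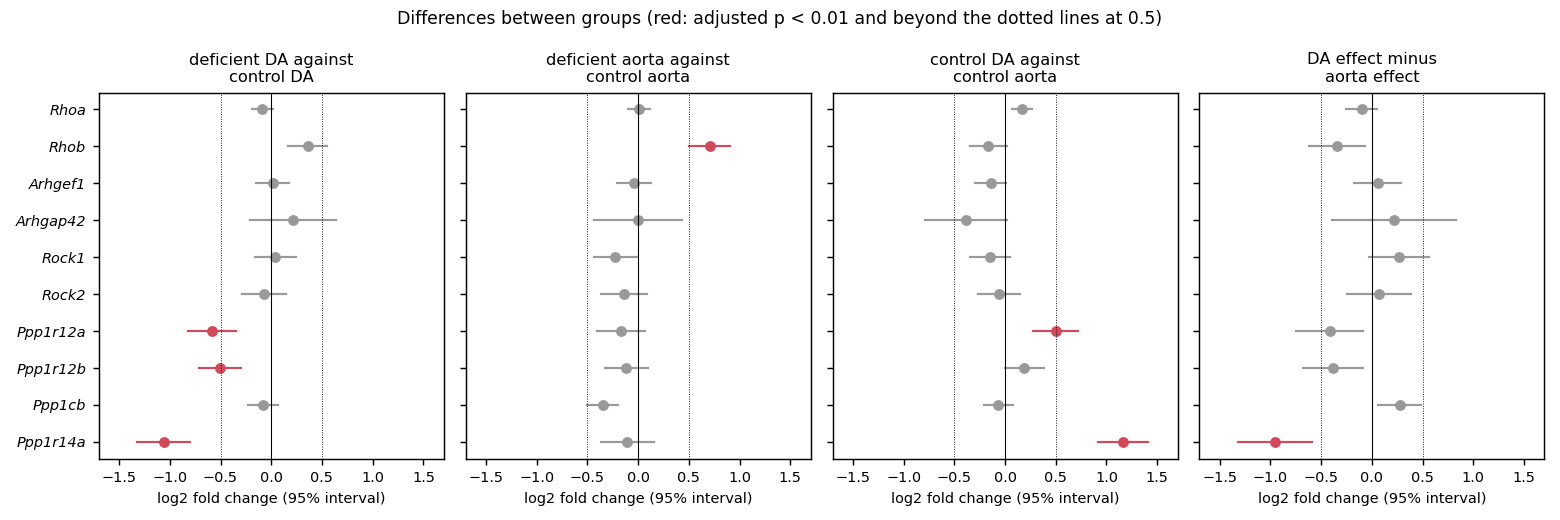
Log2 fold change with its 95% interval for the 10 genes in 4 contrasts, with red for an adjusted p below 0.01 beyond the dotted lines at 0.5. In Prdm6-deficient DA Ppp1r14a (-1.06), Ppp1r12a (-0.59) and Ppp1r12b (-0.50) are red, in Prdm6-deficient aorta Rhob (0.70), and in the rightmost panel, the genotype effect in the DA minus that in the aorta, Ppp1r14a (-0.95).

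The genotype effects of the vessels were compared directly in the same model. The effect on Ppp1r14a was more negative in the DA by 0.95 on the log2 scale (SE 0.18, adjusted p by edgeR = 9.89e-04), and it was the only 1 of the 10 genes to pass, where 2.58% of all genes did. Within the second run of animal numbers the difference was -1.09 with an adjusted p of 0.0282. For Rhob the difference was -0.35 (95% interval -0.62 to -0.07, adjusted p = 0.168), for Ppp1r12a -0.42 (0.163), for Ppp1r12b -0.38 (0.142) and for Ppp1cb 0.27 (0.148), so a different effect in the vessels was not shown for these 4 genes.

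Between the control vessels, the comparison that describes what sets the DA apart from the aorta, Ppp1r14a stood out. It was at 174 to 284 CPM in control DA and at 70.9 to 113 CPM in control aorta, without overlap, for a log2 fold change of 1.16 (SE 0.12, adjusted p by edgeR = 7.77e-08). By the call rule 2 of the 10 genes were higher in control DA and 0 lower, where 3.16% of all genes tested were higher and 2.19% lower. The groups did not overlap for 2 of them, Ppp1r14a and Rhoa, against 5.36% of all genes. The same control libraries serve both this comparison and those of the genotypes. Per the labels less RNA was recovered from the DA than from the aorta, and its part in the difference was not tested.

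The other called gene was Ppp1r12a, at 174 to 277 CPM in control DA and 135 to 183 CPM in control aorta, with overlapping ranges. Its log2 fold change of 0.50 (SE 0.11, adjusted p by edgeR = 0.00174) lay on the fold limit, with adjusted p at most 0.00729 when single libraries were left out. It came inside the limit without control DA replicate 3 (0.45), 5 (0.44) or 6 (0.46), without control aorta replicate 1 (0.49), 3 (0.46) or 6 (0.47), and by a margin under 0.01 without Prdm6-deficient DA replicate 2 or 7 or Prdm6-deficient aorta replicate 1, 2, 4 or 5, which enter only through the shared spread and scaling. Only 1 gene of the set was called in this comparison by limma-voom, with animal as block over control animals, or under other settings listed at the end. Rhoa was at 455 to 511 CPM in control DA and 418 to 437 CPM in control aorta and did not overlap, but its log2 fold change of 0.17 (SE 0.05) had an adjusted p of 0.0239. For the other 7 genes the log2 fold change ranged from -0.38 for Arhgap42 to 0.19 for Ppp1r12b, none with an adjusted p under 0.243.

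All 5 smooth muscle markers exceeded their control aorta level in control DA (median log2 fold change 0.84). Per 1000 CPM of their sum, Ppp1r14a was at 10.7 to 13.6 CPM in control DA (median 12.4) and 8.49 to 10.5 CPM in control aorta (median 9.03), while Ppp1r12a was at 12.1 to 14.4 (median 13.02) and 13.2 to 17.6 (median 16.7). On that scale the vessels were separate and in the same order for Ppp1r14a and overlapped for Ppp1r12a. The sum weighs Acta2 and Tagln most. Myh11 (1.90) and Cnn1 (1.57) differed more between the vessels than Ppp1r14a (1.16), and Smtn (0.84), Tagln (0.74) and Acta2 (0.53) less. The order on that scale thus depends on the markers used. Melanocyte markers were higher in control DA in 3 of 5 cases, while 1 of 5 fibroblast markers (Dpt, log2 fold change -1.05) and 1 of 3 autonomic neuron markers (Elavl4, -1.72) were lower. Their part in the difference was not tested.

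Prdm6-deficient DA was set beside both aorta groups to place its levels. Against control aorta 0 of the 10 genes passed, where 2.02% of all genes did, and Ppp1r14a gave a log2 fold change of 0.10 (95% interval -0.16 to 0.36, adjusted p by edgeR = 0.803), Ppp1r12a -0.08 and Ppp1r12b -0.31 (adjusted p = 0.0920). Against Prdm6-deficient aorta 0 of 10 passed as well, where 0.267% of all genes did. There Rhob was lower in the DA without overlap, at 295 to 434 against 453 to 560 CPM. Its log2 fold change of -0.51 (edgeR adjusted p = 0.0108) was next to the threshold. Ppp1cb was higher without overlap by 0.21 (edgeR adjusted p = 0.281), where 3.52% of all genes did not overlap. Its lowest Prdm6-deficient DA and highest Prdm6-deficient aorta library were nearly level, at 363.5 and 362.9 CPM. Rhob passed without control DA replicate 1 (-0.51, adjusted p = 0.00973), 6 (-0.51, 0.00529) or 7 (-0.51, 0.00685) or without Prdm6-deficient DA replicate 7 (-0.59, 0.00378).

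Ratios within a library do not depend on how libraries are scaled to each other. They are ratios of counts, not divided by exon length, so their size does not say which gene had the higher level per length. Per kb of exon in control DA, mean Ppp1r14a was at 155 against 37.9 CPM for Ppp1cb, and mean Ppp1r12b at 17.9 against 28.1 for Ppp1r12a. The 5 ratios were tested in 3 comparisons with an exact two-sided permutation test over samples and Benjamini-Hochberg adjustment over the 15 tests, and were judged at an adjusted p of 0.05. Libraries were permuted as independent, although 6 control animals gave both vessels, so p-values between the control vessels ignore that pairing. The inhibitor-to-catalytic ratio Ppp1r14a to Ppp1cb was 0.383 to 0.679 in control DA (median 0.530), 0.219 to 0.289 in Prdm6-deficient DA (median 0.265), 0.172 to 0.300 in control aorta (median 0.219) and 0.233 to 0.300 in Prdm6-deficient aorta (median 0.247). Control DA stood alone above the other 3 groups. The log2 ratio differed by -0.96 in Prdm6-deficient DA from control DA (exact permutation p = 0.00126, the smallest these groups allow, adjusted p = 0.00947). In control DA it was 1.22 above that of control aorta (exact permutation adjusted p = 0.00874). The genotypes differed by 0.25 in the aorta (exact permutation adjusted p = 0.255). Between genotypes in the DA, Ppp1r14a itself gave a log2 fold change of -1.06 and Ppp1cb -0.08. The part of cell makeup in this ratio was not tested.

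The ratio of Rhob to Rhoa was 0.471 to 0.677 in control DA, 0.593 to 0.963 in Prdm6-deficient DA, 0.663 to 0.813 in control aorta and 1.07 to 1.31 in Prdm6-deficient aorta. Only in Prdm6-deficient aorta did Rhob counts exceed Rhoa counts in every library. Per kb of exon, mean Rhob was above mean Rhoa in every group. Rhob was at 118 against 64.5 CPM per kb in control DA and 151 against 60.7 in Prdm6-deficient DA. In control aorta it was at 132 against 57.5, and in Prdm6-deficient aorta at 215 against 58.0. The log2 ratio was higher by 0.69 in Prdm6-deficient than in control aorta (exact permutation adjusted p = 0.0108, without overlap) and by 0.44 in Prdm6-deficient than in control DA (exact permutation adjusted p = 0.0253, with overlap). The DA difference had adjusted p above 0.05 without Prdm6-deficient DA replicate 5 (0.39, exact permutation adjusted p = 0.0530), Prdm6-deficient DA replicate 7 (0.36, 0.0682) or control DA replicate 1 (0.43, 0.0541). In control DA the ratio differed from control aorta by -0.33 on the log2 scale (exact permutation adjusted p = 0.0227).

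The ratio of the targeting subunits, Ppp1r12b to Ppp1r12a, differed between the control vessels by -0.30 on the log2 scale (exact permutation adjusted p = 0.0153), with medians of 1.17 in control DA and 1.43 in control aorta. It did not pass between genotypes, at 0.08 in the DA (exact permutation adjusted p = 0.517) and 0.05 in the aorta (0.584). Rock2 to Rock1 and Arhgap42 to Arhgef1, the latter a ratio of the RhoA off-switch to an on-switch, passed in 0 of 6 tests, with log2 differences from -0.31 to 0.29 and adjusted exact permutation p of 0.508 or more.

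**Figure D4:**
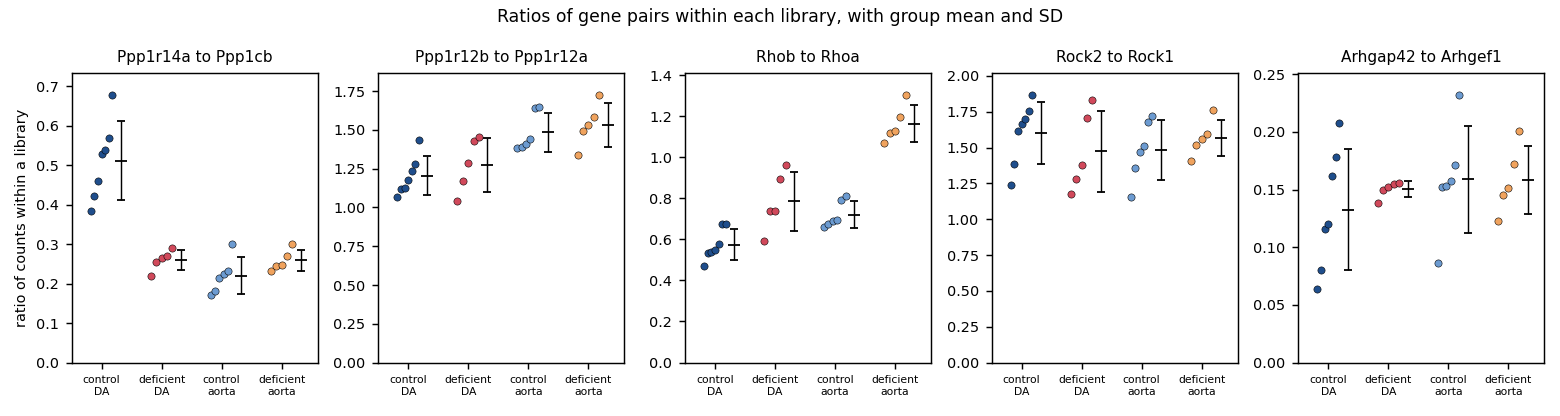
Ratio of the counts of 2 genes within each library, not divided by exon length (points, ordered by value within a group), with group mean and SD. Ppp1r14a to Ppp1cb lies at 0.383 to 0.679 in control DA and at or below 0.300 in all other libraries, and Rhob to Rhoa lies at 1.07 or more only in Prdm6-deficient aorta.

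The genes around the set were followed with a list of 90 RhoA and myosin phosphatase pathway genes, the 10 included, of which 89 were tested. The list too was chosen with earlier results of these data known, so its counts are descriptive. Leaving out the 10, 79 were tested: 3 rose and 6 fell in Prdm6-deficient DA, beside 2.61% and 2.82% of all genes, and 4 rose and 1 fell in Prdm6-deficient aorta, beside 1.63% and 0.826%. The median log2 fold change of the 79 was -0.03 in the DA and 0.02 in the aorta, beside 0.01 and -0.0010 over all genes. Of 13 genes grouped as downstream of ROCK, a group that also holds Mylk, whose kinase acts opposite the phosphatase, 4 were lower in Prdm6-deficient DA and 0 higher, while of 18 GTPase-activating proteins and of 11 RhoA-family effectors 0 were called in either direction.

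Mylk, the gene of myosin light chain kinase, which opposes the phosphatase, was at 417 to 754 CPM in control DA (median 484), 222 to 379 CPM in Prdm6-deficient DA (median 284), 168 to 263 CPM in control aorta (median 186) and 289 to 335 CPM in Prdm6-deficient aorta (median 309). It was lower in Prdm6-deficient DA (log2 fold change -0.99, SE 0.15, edgeR adjusted p = 3.39e-05) and higher in Prdm6-deficient aorta (0.65, SE 0.15, 0.00759), without overlap in either case. The difference between these effects was -1.64 (SE 0.21, adjusted p by edgeR = 1.68e-05). The aorta call was lost (0.61 to 0.68, adjusted p from 0.0128 to 0.0243) without control aorta replicate 1, 2, 3, 5 or 6 or without any 1 of the 5 Prdm6-deficient aorta samples, and that in the DA in the first run (-0.92, 0.0286). Counts per gene do not separate the kinase from telokin, a short product of the same gene.

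Among the other genes of that group Myl9, Limk2 and Cfl2 were lower in the DA, and Cfl1, Limk1, Ssh1 and Ssh2 did not pass. Myl9, the smooth muscle regulatory light chain, ran from 1513 to 2549 CPM in control DA, against 1226 to 1431 CPM in Prdm6-deficient DA (log2 fold change -0.58, SE 0.10, edgeR adjusted p = 2.76e-04). Limk2, a kinase that ROCK switches on, gave -0.62 (SE 0.12, 4.75e-04), and Cfl2, a cofilin that such kinases switch off, gave -0.61 (SE 0.09, 3.11e-05). In all 3 the groups were separate, and in Prdm6-deficient aorta they gave 0.06, 0.42 (adjusted p = 0.0368) and -0.13. The effects differed between vessels for Limk2 by -1.04 (edgeR adjusted p = 1.92e-04) and for Myl9 by -0.64 (0.00843). The Myl9 difference no longer passed (-0.57 to -0.67, adjusted p from 0.0104 to 0.0204) without control DA replicate 3, 5, 6 or 7, Prdm6-deficient DA replicate 1, 2, 6 or 7, control aorta replicate 1, 2, 5 or 6, or any 1 of the Prdm6-deficient aorta samples. In the first run alone the DA calls of Myl9 (-0.47, 0.143), Limk2 (-0.81, 0.0462) and Cfl2 (-0.61, 0.100) were lost, and in the second that of Limk2 (-0.55, 0.0660). Cfl2, with Myl9 and Gnaq, was chosen for its call and not by the size rule for named genes.

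Among kinases that act on the phosphatase, Prkca (protein kinase C alpha, which can phosphorylate CPI-17) was lower in Prdm6-deficient DA, at -0.69 (SE 0.16, adjusted p by edgeR = 0.00462), with overlap. Prkg1 (cGMP-dependent kinase, which promotes relaxation) was higher in both vessels, at 0.66 (SE 0.14, 0.00211) in the DA and 0.65 (SE 0.15, 0.00672) in the aorta, without overlap. In the aorta its highest control and lowest Prdm6-deficient library were nearly level, at 40.5 and 40.9 CPM. Upstream of RhoA, Gnaq (a G protein alpha subunit of contractile receptors) was lower in Prdm6-deficient DA at -0.52 (SE 0.12, 0.00247), with overlap. Arhgef10l, an exchange factor for RhoA-family GTPases, was higher there at 0.54 (SE 0.10, 4.20e-04), also with overlap. Its effect in the aorta was -0.30 (edgeR adjusted p = 0.119).

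Several of these calls were lost when 1 library was left out. That of Prkca in the DA was lost without control DA replicate 3 (-0.61) or 7 (-0.63) or Prdm6-deficient DA replicate 2 (-0.68), 5 (-0.62) or 6 (-0.61), with adjusted p from 0.0121 to 0.0210. Prkg1 was not called in the DA without Prdm6-deficient DA replicate 5 (0.59) or without the pooled samples (0.65), and in the aorta without control aorta replicate 1, 3, 4 or 6 or Prdm6-deficient aorta replicate 1, 2, 4 or 5 (0.58 to 0.67, adjusted p from 0.0114 to 0.0274). Gnaq lost its call without control DA replicate 5 (-0.48) or 7 (-0.50) or Prdm6-deficient DA replicate 2 (-0.44) or 6 (-0.48), and Arhgef10l without control DA replicate 5 (0.49). In the first run alone none of the 4 passed in the DA, with Prkca at -0.73 (adjusted p = 0.319), Prkg1 at 0.89 (0.0645), Gnaq at -0.22 (0.600) and Arhgef10l at 0.33 (0.426).

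Rnd2, an atypical RhoA-family member without GTPase activity, was at 9.78 to 26.1 CPM in control DA (median 16.0) and 38.6 to 47.3 CPM in Prdm6-deficient DA (median 42.0), without overlap. Its log2 fold change of 1.37 (SE 0.16, adjusted p by edgeR = 7.10e-07) was the highest of the called pathway genes. Rnd3, a relative that binds ROCK, was higher in Prdm6-deficient aorta (0.75, SE 0.12, 1.29e-04) and gave 0.44 in the DA (adjusted p = 0.0113). The exchange factors Arhgef28 (0.67, SE 0.13, 9.61e-04) and Vav3 (-1.33, SE 0.17, 4.55e-06) were higher and lower in Prdm6-deficient aorta, both without overlap. For Arhgef28 the highest control and the lowest Prdm6-deficient aorta library were nearly level, at 25.6 and 25.8 CPM.

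Between the control vessels 8 of the 79 genes were higher in the DA and 3 lower, beside 3.16% and 2.19% of all genes. The leading ones were Mylk (1.47), Rhpn2 (1.12), a RhoA-family-binding scaffold, and Ezr (1.06), which links actin to the membrane. Rnd2 (-1.19), Vav3 (-1.04) and Arhgef10l (-0.70) were lower in control DA. Rhpn2 lost its call (0.97 to 1.16, adjusted p from 0.0107 to 0.0193) without control DA replicate 1, 2, 3 or 6 or control aorta replicate 2, 3, 4, 5 or 6. Ezr lost it (0.87 to 1.09, adjusted p from 0.0102 to 0.0301) without control DA replicate 1, 2, 3 or 4, control aorta replicate 2, 3, 4, 5 or 6, Prdm6-deficient DA replicate 1, 2 or 6, or any 1 of the Prdm6-deficient aorta samples. These comparisons share control libraries with those of the genotypes, so their values are placed side by side only.

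**Figure D5:**
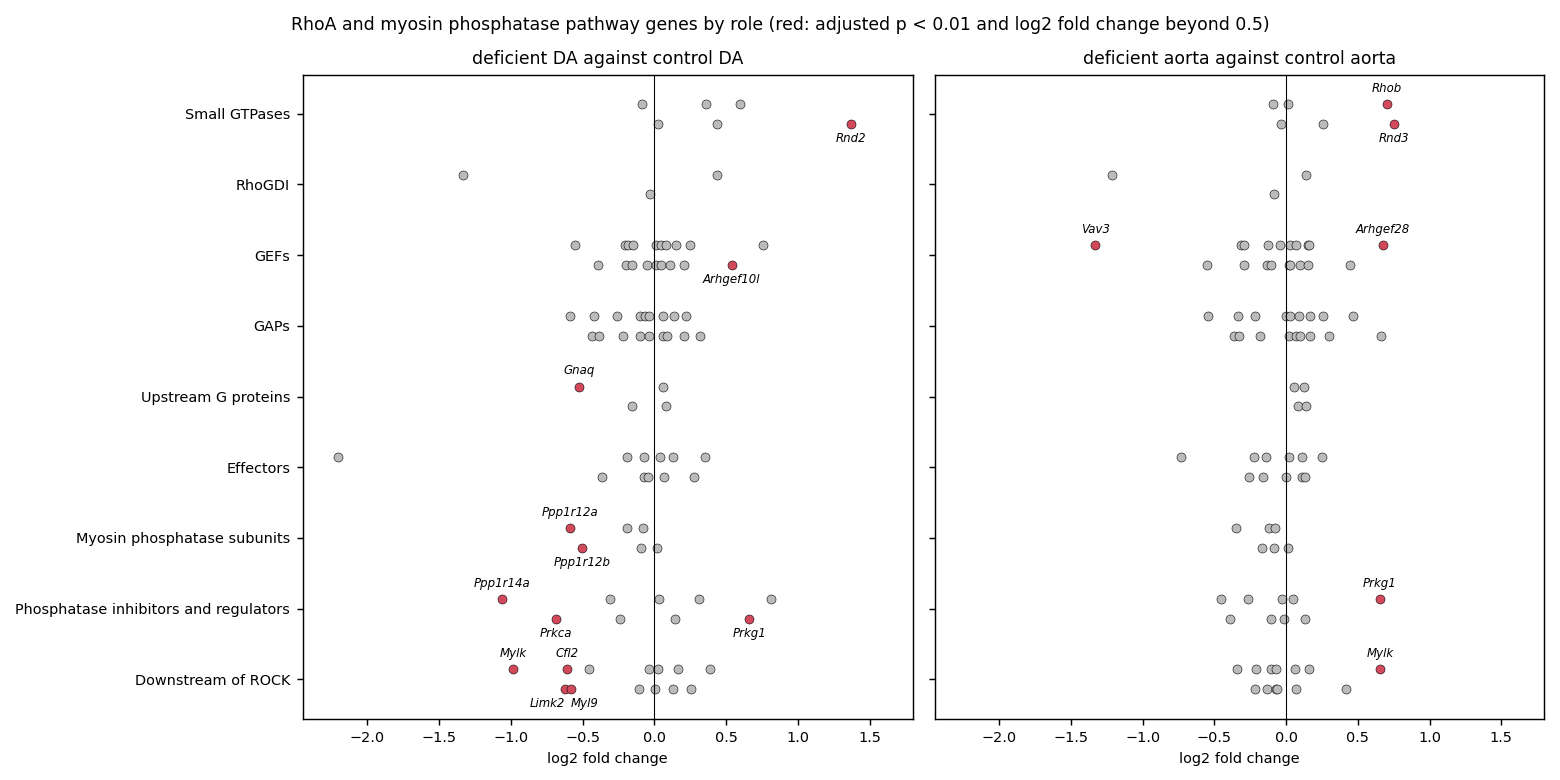
Log2 fold change of the 89 pathway genes by role in each vessel, with red and a name for called genes. In the DA the named genes downstream of ROCK (Mylk, Limk2, Cfl2 and Myl9) all lie left of 0, and in the aorta Mylk lies right of 0 at 0.65.

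The genes whose log2 CPM followed each of the 3 lower genes most closely over the 23 libraries were sought across all genes tested. For Ppp1r14a they were Dmpk (Pearson r = 0.98), a muscle kinase, Actg2 (0.97), a smooth muscle actin, and Tpm2 (0.97), a tropomyosin. For Ppp1r12a they were Cfl2 (0.95), the chloride channel-like protein gene Clic4 (0.93) and the matrix gene Smoc1 (0.93), and for Ppp1r12b they were Fstl1 (0.87), Ilk (0.86), a kinase that can act on the phosphatase, and Sec24d (0.85). The libraries share groups, depth and cell makeup, so these values describe likeness of pattern over libraries only.

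Some counts carry more uncertainty than their spread shows. Rhoa had fractional expected counts in 23 of 23 libraries, from reads divided among genes, and shares 324 exon bases with the antisense gene Gm37401 and 32 with Tcta. Ppp1r12b shares 710 exon bases with the antisense gene Gm28892, and its expected counts were fractional in 0 of 23 libraries. RSEM was run with default parameters, which do not use strand, so reads of such pairs cannot be told apart.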

How the data were processed

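The deposited table holds expected counts per gene, estimated by the authors with RSEM after quality filtering with FASTX, adapter removal with tagdust and alignment to mm10 with STAR, with the GENCODE annotation named in the study's methods; tool versions are not given in the sources used here. Expected counts were rounded to whole numbers and tested with edgeR 4.0.16 in R 4.3.3 (filterByExpr, TMM, quasi-likelihood test, Benjamini-Hochberg over 16463 genes). The model held 1 mean per vessel and genotype for 23 libraries, without a replicate block. A shared replicate number marked different animals, or a pool and an embryo of that pool, in 26 of 28 same-number pairs. An animal block was an alternative, and it took each pool as an animal of its own. A gene was called past both limits, 0.01 on adjusted p and 0.5 on the size of the log2 fold change. DESeq2 1.42.0 and limma-voom (limma 3.58.1) were alternatives. Ratios were tested with exact permutations at an adjusted p of 0.05. The procedure was tested on simulated data.

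The 10 genes, the pathway list and the marker lists were chosen with earlier results of these data known. Named pathway genes were the 4 called ones with the largest change each way, at an average log2 CPM of at least 1, plus the genes said above to be chosen otherwise; each of the 3 lower genes was given its 3 closest genes. Levels per kb used GENCODE exons on mm10, and 54723 of 54752 identifiers had a symbol. Totals were 15163974 to 22610547 counts per library.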

Additional observations from a re-analysis of the deposited data

Results flagged for a closer look

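Of 60 sets of values (the 10 genes and the 5 ratios in each of 4 groups) 3 held a library far from the rest by Dixon's test, and chance alone marks about 1 in 20 sets. Rock1 in control DA replicate 6 was at 116 CPM, above the other control DA libraries. Ppp1r12b in Prdm6-deficient DA replicate 5 was at 217 CPM, and Ppp1r14a in Prdm6-deficient aorta replicate 2 at 104 CPM, each above the rest of its group.

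The genotype effect differed between the DA and the aorta by the interaction test (edgeR adjusted p below 0.01 and a difference beyond 0.5) for 7 of 89 pathway genes tested, where 2.58% of all genes were called. The effect in the DA minus that in the aorta was -0.95 for Ppp1r14a, -1.64 for Mylk, -1.04 for Limk2 and -0.64 for Myl9, and 1.11 for Rnd2, 0.84 for Arhgef10l and 1.38 for Vav3. In the second run of animal numbers alone the edgeR adjusted p was 0.0197 for Limk2 (-0.98), 0.0833 for Rnd2 (1.06), 0.0328 for Myl9 (-0.82) and 0.0282 for Ppp1r14a (-1.09). The Myl9 difference also lost its call without most single libraries.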

How the results depend on the processing

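None of the called results reversed under an alternative. Ppp1r14a was called in the DA under every alternative, and in the difference between vessels under all but the second run of animal numbers alone. Of the summary values 180 under other settings and 522 with a library left out kept their call, or lay within 1.5 times the count in the report. The exceptions follow; the cause was not tested.

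In control DA against control aorta, 1 of the 10 genes was called under limma-voom, limma-voom with animal as a block, no filter on low counts, the replicate block, animal as block over control animals, only the compared groups in the fit, the second run, or without the pooled samples, and 1 to 2 with single libraries left out. In the DA, 1 of the 10 was called in the first run, the second run or without the pooled samples. Pathway genes called there were 2 in the first run and 7 without the pooled samples, and all genes called were 201 in the first and 419 in the second run. In the aorta 2 of the 10 were called with no fold limit, and all genes called were 616 at an adjusted p below 0.05, 702 with only the compared groups in the fit and 226 in the second run. For the difference between vessels all genes called were 769 at 0.05, and the second run gave 0 of the 10, 3 pathway genes and 166 genes in all.

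Prdm6-deficient DA against control aorta gave 536 genes at 0.05, 84 in the second run and 212 without the pooled samples. Prdm6-deficient DA against Prdm6-deficient aorta gave 1 of the 10 (Rhob) under limma-voom with or without the animal block, no filter, or 0.05, and 0 to 1 with single libraries left out. Genes called in that comparison were 137 by DESeq2, 129 at 0.05, 69 by limma-voom with animal as block, 83 with only the compared groups, 16 under the replicate block, 15 without the pooled samples, 3 in the first run, 6 in the second and 22 to 58 with single libraries left out.

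With single libraries left out, the log2 ratio difference ranged from 0.36 to 0.54 for Rhob to Rhoa in the DA and from 0.19 to 0.35 for Ppp1r14a to Ppp1cb in the aorta, the latter passing without control aorta replicate 5 (0.35, exact permutation adjusted p = 0.0340). Same-numbered samples not from the same single animal did not deviate together (median r = -0.0044 over 26 pairs). In most same-number pairs the number is all that is shared. The 26 pairs include Prdm6-deficient DA replicate 2, a pool, beside Prdm6-deficient aorta replicate 2, which came from an embryo of that pool. Samples of 1 animal gave 0.0255 over 8 pairs. The first run held 1 control aorta library, and comparisons that need more were not run there.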
